A study of Mus musculus with 6 samples.

Results

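The NF-kB family of transcription factors has 5 subunit genes in the mouse, Nfkb1, Nfkb2, Rela, Relb and Rel, and their transcripts were followed here in mouse MSCs (mesenchymal stem cells), stromal cells grown from bone marrow. Genes were chosen by symbol, and all 5 were found once each among the 15634 genes listed and passed the filter that left 15547 genes to test. The cells came from wild-type C57BL/6J mice and were grown in medium with 15% serum. There were 3 Control libraries, from cells left unstimulated, and 3 TNF libraries, from cells given the inflammatory cytokine TNF-α at 10 ng/mL for 24 h. Total counts lay between 45629973 and 77142418 per library, and each subunit had at least 595 counts in every library. The sources used here do not say whether the 3 libraries of a group came from separate cultures or animals, so p-values measure only the spread between these samples.

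NF-kB acts as dimers of these subunits, which share a DNA-binding region known as the Rel homology domain. In the canonical pathway, TNF receptors activate the IKK complex, IkB inhibitor proteins are degraded, and dimers such as p50 with RelA enter the nucleus. In the noncanonical pathway the kinase NIK builds up and drives processing of the p100 precursor to p52, which pairs with RelB. Nfkb1 encodes the p105 precursor of p50 and Nfkb2 the p100 precursor of p52, while Rela, Relb and Rel encode RelA (p65), RelB and c-Rel, which carry a transactivation domain. Here Nfkb1, Rela and Rel are called canonical and Nfkb2 and Relb noncanonical. RNA levels do not show precursor processing, protein amounts or nuclear entry.

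Of the 5 subunits, 4 rose in TNF and Rel was not called. At an adjusted p under 0.05 (edgeR quasi-likelihood, Benjamini-Hochberg over all tested genes), 16.0% of tested genes were called higher and 32.4% were called in either direction. Both noncanonical subunits had larger fold changes than each of the 3 canonical ones: Relb rose 4.85-fold and Nfkb2 3.90-fold, against 2.20-fold for Nfkb1 and 1.71-fold for Rela. The 3 Control and 3 TNF values did not overlap for the same 4 subunits, a separation with TNF above Control that 24.0% of tested genes showed (48.7% in either direction). Of the members, 3 were called higher by at least 2-fold, as were 5.81% of tested genes, and 4 by at least 1.5-fold, as were 9.45%. Ranked by fold change, Relb was 333rd and Nfkb2 428th of 15547 tested genes, Nfkb1 was 858th, Rela 1389th and Rel 4954th.

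Libraries differed in makeup. The share of counts from 18S ribosomal RNA (Rn18s-rs5) was 19.4% in TNF library 2, against 1.10% to 3.55% elsewhere. TPM (transcripts scaled to one fixed total per library) of every other gene in TNF library 2 is lowered by this, while CPM (counts scaled to library size with TMM factors) is adjusted for it. All 12 stromal markers checked were listed, of which 4 (Pdgfra, Lepr, Cd44 and Vcam1) were called higher and 2 (Col1a1 and Thy1) lower. Their summed level was 9573 to 13216 CPM in Control and 7368 to 7771 CPM in TNF. Without Col1a1, the most abundant, the sum of the other 11 was 2457 to 3069 CPM in Control and 3553 to 3749 CPM in TNF. Vcam1 had the largest rise among these 11, from 139 ± 3.95 to 1170 ± 91.6 CPM (SD, n = 3 each). Of the other abundant markers, Cd44 rose from a mean of 177 to 428 CPM. Cxcl12 (1188 and 973 CPM), Prrx1 (477 and 405), Pdgfrb (366 and 351) and Ly6a (218 and 172) had lower means in TNF and were not called. The direction of a stromal sum thus rests on the markers counted in it, and a sum without Vcam1 was not taken. The higher sum of the 11 therefore does not show a rise across stromal markers. All 18 macrophage markers were listed too, none at 0 in any library. Their summed level was 2631, 3897 and 2582 CPM in Control libraries 1, 2 and 3 and 2477 to 2576 CPM in TNF, with 4 called higher and 7 lower. Of 9 B and T lymphocyte markers only Cd4 was listed, at 0.422 ± 0.0536 CPM in Control (SD, n = 3). In bulk RNA, fewer cells of a type and less RNA per cell cannot be told apart, and the cell type in which a subunit changed was not determined.

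Among canonical subunits, Nfkb1 had 60.9, 58.1 and 57.3 CPM in Control libraries 1, 2 and 3 and 133, 134 and 120 CPM in TNF libraries 1, 2 and 3. The 3 Control values lay close together, and the lowest TNF value was above all of them. The log2 fold change of Nfkb1 was 1.14 ± 0.08 (SE; 95% interval 0.95 to 1.32, adjusted p = 1.49e-05 by edgeR).

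Rela encodes the subunit that carries most canonical transcriptional activity. It had 94.2, 113 and 98.7 CPM in Control and 175, 166 and 184 CPM in TNF, in the order of the libraries. Control library 2 was the highest Control library for Rela, and all 3 TNF libraries lay above it. The log2 fold change was 0.78 ± 0.10 (SE; 95% interval 0.55 to 1.0, adjusted p = 0.000384 by edgeR).

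Rel encodes c-Rel, best known from lymphocytes and myeloid cells. It had 11.2, 14.6 and 11.0 CPM in Control and 13.4, 15.2 and 13.0 CPM in TNF. Control library 2 exceeded TNF libraries 1 and 3, so the groups overlapped. The log2 fold change of Rel was 0.18 ± 0.13 (SE) and was not called (adjusted p = 0.332 by edgeR), with a 95% interval of 0.92-fold to 1.39-fold. A change as large as the 1.71-fold rise of Rela lies outside this interval, while a small change in either direction lies inside it. Without Control library 2 the log2 fold change of Rel was 0.32 with adjusted p = 0.0395 by edgeR, and all 5 subunits were then called higher. Over the 21 alternative settings tried, adjusted p for Rel ranged from 0.0395 to 0.668. Control library 2 also had the highest sums of macrophage and of stromal markers of all 6 libraries (3897 and 13216 CPM), and the highest dendritic sum within Control (4.97 CPM). The stromal rank depends on the markers counted. With Col1a1 alone left out, every Control library (at most 3069 CPM) lay below every TNF library (at least 3553 CPM). The most abundant macrophage marker was Lyz2, at 1334 ± 402 CPM in Control (SD, n = 3). The part of these cell types in the level of Rel was not tested.

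Among noncanonical subunits, Nfkb2 had 87.1, 77.1 and 90.0 CPM in Control and 348, 326 and 319 CPM in TNF. Every TNF library held over 3 times as much Nfkb2 RNA as any Control library. The log2 fold change was 1.96 ± 0.10 (SE; 95% interval 1.74 to 2.19, adjusted p = 1.88e-06 by edgeR).

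Relb had 23.7, 19.1 and 24.9 CPM in Control and 116, 115 and 96.8 CPM in TNF. It had the largest fold change of the 5, with TNF library 3 the lowest of its group and still well above Control. The log2 fold change was 2.28 ± 0.13 (SE; 95% interval 1.99 to 2.57, adjusted p = 3.31e-06 by edgeR). This interval overlapped that of Nfkb2 and lay above those of Nfkb1, Rela and Rel. RelB is also well known from dendritic cells. Of 4 dendritic cell markers, Zbtb46 and Itgax were listed and both were called higher, with a summed level of 3.04 to 4.97 CPM in Control and 10.3 to 13.2 CPM in TNF, and Flt3 and Siglech were not listed. The part of dendritic cell RNA in the level of Relb was not tested.

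Within Control, library 2 was the lowest of the 3 for Nfkb2 and Relb and the highest for Rela and Rel. Leaving it out gave log2 fold changes of 1.90 for Nfkb2, 2.17 for Relb, 1.13 for Nfkb1 and 0.86 for Rela, each still called.

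**Figure D1:**
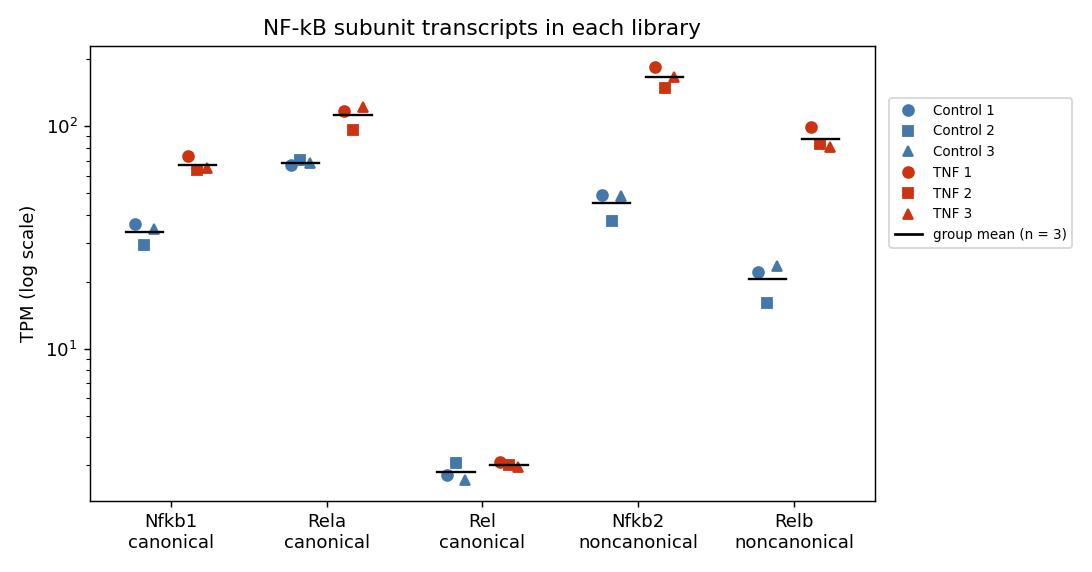
TPM of each subunit (log axis) in the 3 Control (blue) and 3 TNF (red) libraries, with marker shape for the library number and bars for group means. The groups are apart for Nfkb1, Rela, Nfkb2 and Relb and overlap for Rel, which lies near 3 TPM in all 6 libraries.

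TPM, which accounts for transcript length, allows levels to be set side by side between genes. In Control the order was Rela with 68.6 ± 1.85 TPM, Nfkb2 with 45.0 ± 6.55, Nfkb1 with 33.3 ± 3.70, Relb with 20.6 ± 3.99 and Rel with 2.79 ± 0.258 TPM (SD, n = 3 libraries). No neighbours in this order overlapped between libraries, although Nfkb2 in Control library 2 (37.4 TPM) was close to the highest value of Nfkb1 (36.4 TPM). In TNF the order was Nfkb2 with 167 ± 18.2 TPM, Rela with 112 ± 13.6, Relb with 87.6 ± 9.79, Nfkb1 with 67.2 ± 5.20 and Rel with 3.01 ± 0.0760 TPM. The ranges of Rela and Relb overlapped in TNF, with Rela above Relb within each of the 3 libraries. Nfkb2 thus took the first place from Rela, and Relb the place above Nfkb1, while Rel was last in both groups. Against all listed genes, Rel lay at percentile 27.6 of mean TPM in Control and 29.4 in TNF, and Nfkb2 at 79.0 and 94.4.

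The summed level of the 5 subunits was 177, 156 and 178 TPM in Control and 478, 395 and 436 TPM in TNF. The group means were 170 ± 12.2 and 437 ± 41.3 TPM (SD, n = 3 each). Rescaled without 18S ribosomal RNA, the means were 175 ± 14.5 and 476 ± 30.2 TPM. The 2 noncanonical subunits made up 40.2%, 34.2% and 40.5% of this sum in Control and 59.4%, 58.7% and 56.7% in TNF, so that they were the smaller part in each Control library and the larger part in each TNF library. Nfkb2 alone went from 26.3% ± 2.05 to 38.2% ± 0.542 (SD, n = 3). Relb alone made up 12.5%, 10.2% and 13.2% in Control and 20.7%, 21.1% and 18.5% in TNF. The share of Rela went from 40.5% ± 4.04 to 25.6% ± 1.95 and that of Nfkb1 from 19.6% ± 0.925 to 15.4% ± 0.678, although the RNA of both had risen. Rel made up 1.65% ± 0.279 in Control and 0.693% ± 0.0594 in TNF. Shares of one sum are tied to each other, so these are a single description and no separate findings.

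**Figure D2:**
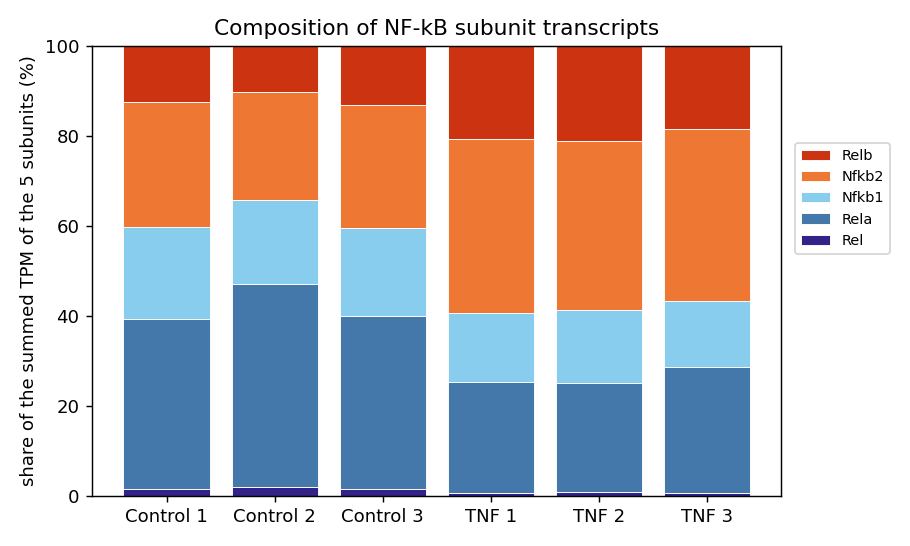
Share of the summed TPM of the 5 subunits held by each subunit, in percent, in every library. Noncanonical Nfkb2 and Relb (orange and red) take 34.2% to 40.5% of each Control bar and 56.7% to 59.4% of each TNF bar.

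Ratios between 2 subunits of one library cancel the scaling of that library, and 3 such ratios were compared between groups. Nfkb2 over Nfkb1, the ratio of the precursor genes, was 1.35, 1.28 and 1.41 in Control and 2.53, 2.33 and 2.58 in TNF, a 1.84-fold difference on the log scale. Relb over Rela was 0.333, 0.227 and 0.342 in Control and 0.840, 0.865 and 0.664 in TNF, a 2.65-fold difference. In both cases the noncanonical subunit gained on its canonical counterpart in every TNF library against every Control library. Rel over Rela was 0.0406, 0.0437 and 0.0376 in Control and 0.0263, 0.0312 and 0.0242 in TNF, so Rel lost ground to Rela and its groups did not overlap either. Each of the 3 differences had a two-sided exact permutation p = 0.10, and 0.10 after Benjamini-Hochberg adjustment over the 3, which is the smallest p that 3 against 3 libraries can give. This test could therefore not pass a threshold of 0.05 for any of the 3 ratios. Without Control library 2, in which Relb over Rela was lowest, the log2 difference for that ratio was 1.22 in place of 1.41.

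**Figure D3:**
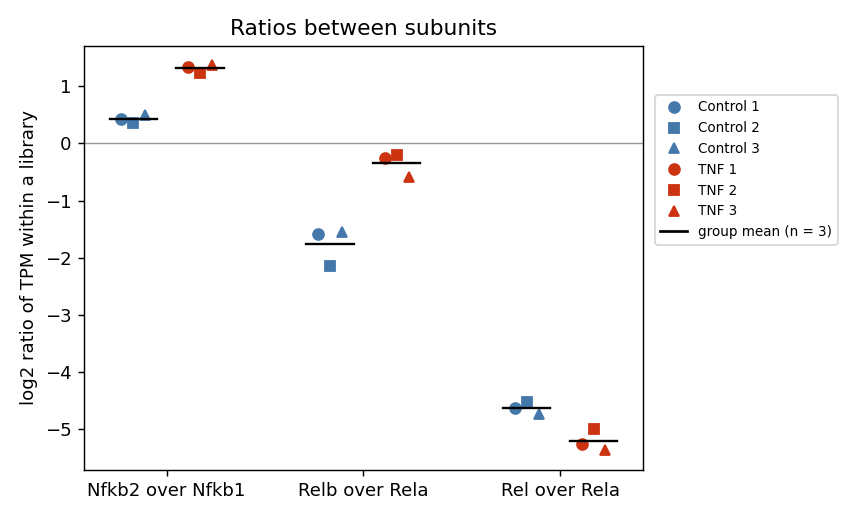
Log2 ratio of TPM between 2 subunits within each library, with marker shape for the library number and bars for group means. Both noncanonical over canonical ratios are higher in all 3 TNF libraries than in any Control library, and Rel over Rela is lower.

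Some subunit genes are themselves known targets of NF-kB, so sequence around start sites of members is shown. RefSeq promoter windows (build GRCm38.p6, 250 bases before to 50 after a start) were matched by symbol. Such windows were found for Nfkb2, Rela and Rel (3 of 5). The deposited files use build GRCm39, and no coordinate was carried over between the builds. Windows were searched on both strands for the kappaB consensus and for the shorter GGNNTTTCC, whose matches overlapped the consensus ones in each case below. The consensus was found in 8.46% of all 32851 windows of this length and the shorter motif in 5.82%. Capitals mark matches to the kappaB consensus. Nfkb2 has 3 windows for 3 start sites, of which the first (chr19:46304487-46304786, plus strand) and the second (chr19:46305445-46305744, plus strand) are printed. The third overlaps the second, and its only match is the site at 10 to 19 bases after the start of the second. The first holds matches from 39 to 29 and from 11 to 2 bases before the start, and the second from 236 to 227 bases before and from 10 to 19 bases after its start, so the 3 windows hold 4 separate places. The window of Rel (chr11:23770920-23771219, minus strand) holds overlapping matches from 92 to 82 bases before the start. That of Rela (chr19:5637291-5637590, plus strand) holds no match to either motif.
Nfkb2, first window: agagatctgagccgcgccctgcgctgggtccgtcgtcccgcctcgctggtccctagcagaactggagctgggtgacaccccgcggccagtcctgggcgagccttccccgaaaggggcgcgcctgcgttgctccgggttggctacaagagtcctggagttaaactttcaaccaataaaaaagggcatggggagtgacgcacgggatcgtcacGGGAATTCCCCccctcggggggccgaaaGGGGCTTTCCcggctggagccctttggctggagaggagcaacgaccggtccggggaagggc
Nfkb2, second window: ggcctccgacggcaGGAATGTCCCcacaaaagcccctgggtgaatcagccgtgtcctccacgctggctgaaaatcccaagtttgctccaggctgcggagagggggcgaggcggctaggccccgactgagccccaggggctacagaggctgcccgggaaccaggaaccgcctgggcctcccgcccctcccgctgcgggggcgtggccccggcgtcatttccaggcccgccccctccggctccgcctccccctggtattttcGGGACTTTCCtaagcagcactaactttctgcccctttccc
Rel: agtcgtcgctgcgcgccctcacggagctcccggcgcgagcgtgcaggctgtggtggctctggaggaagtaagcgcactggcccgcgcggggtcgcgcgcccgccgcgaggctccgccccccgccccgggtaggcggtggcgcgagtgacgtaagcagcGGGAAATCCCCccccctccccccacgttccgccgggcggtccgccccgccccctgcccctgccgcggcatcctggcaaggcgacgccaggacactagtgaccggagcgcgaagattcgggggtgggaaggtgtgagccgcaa
Rela: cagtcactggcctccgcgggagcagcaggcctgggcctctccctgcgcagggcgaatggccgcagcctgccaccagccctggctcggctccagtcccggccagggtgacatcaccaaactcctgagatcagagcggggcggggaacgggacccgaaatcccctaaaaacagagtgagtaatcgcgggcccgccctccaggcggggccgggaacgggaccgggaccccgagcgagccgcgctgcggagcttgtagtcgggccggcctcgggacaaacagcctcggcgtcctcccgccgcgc

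Set beside the RNA values, these windows cover 3 of the 5 members, without Relb and Nfkb1. Nfkb2, with 4 separate places of match over its 3 windows, rose 3.90-fold. Rel has a match at a single place of its only window and was not called. Rela has none in its only window and rose 1.71-fold. Whether matches go with the response was not tested. A match is a description of letters, not a binding site, and these data hold no measure of binding.

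Other genes of the pathway were taken from 6 lists. Of 6 IkB family genes, which encode inhibitors and nuclear cofactors of NF-kB, 5 rose and 0 fell, with a median log2 fold change of 2.33 against -0.005 over all genes tested. Nfkbie (IkB epsilon) rose from 12.2 ± 0.642 to 140 ± 1.70 CPM, and Bcl3, a nuclear cofactor that binds p50 and p52 dimers, from 10.3 ± 1.44 to 59.8 ± 9.77 CPM (SD, n = 3 each). Nfkbid was not called (0.651 ± 0.116 and 1.04 ± 0.247 CPM, adjusted p = 0.0805 by edgeR). The summed TPM of Nfkbia, Nfkbib and Nfkbie, which encode cytoplasmic inhibitors, was set against that of the 5 subunits. It was 0.533, 0.309 and 0.478 times that sum in Control and 2.28, 2.67 and 1.76 times in TNF. RNA of these IkB genes was thus below subunit RNA in every Control library and above it in every TNF library. The genes of the p105 and p100 precursors were counted only as subunits here.

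The noncanonical receptor and NIK control list had 10 genes, of which 9 were tested, 6 rose and 1 fell. Its median log2 fold change was 0.99. Birc3 and Birc2, which encode the ubiquitin ligases cIAP2 and cIAP1 of the complex that degrades NIK, both rose. Birc3 went from 21.5 ± 2.41 CPM in Control to 136 ± 8.96 CPM in TNF, and Birc2 from 27.8 ± 1.46 to 81.1 ± 6.18 CPM. Map3k14, which encodes NIK itself, rose from 10.8 ± 0.696 to 19.6 ± 3.98 CPM (log2 fold change 0.86 ± 0.14 SE), and Traf3, which brings NIK to that complex, from 41.0 ± 5.61 to 81.4 ± 1.02 CPM. The naming rule does not cover Map3k14 and Traf3, which were picked with their values known. The gene that fell was Tnfrsf11a, the receptor RANK (log2 fold change -0.78), named outside the rule as well. Ltbr, the lymphotoxin beta receptor, and Tnfrsf12a, the TWEAK receptor, were not called (adjusted p = 0.201 and 0.817 by edgeR).

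Of 14 genes of the IKK complex and its activators, 5 rose and 0 fell, with a median log2 fold change of 0.17. Traf2, whose protein links TNF receptors to IKK, was at 25.0 ± 0.316 CPM in Control and 43.1 ± 0.570 CPM in TNF. Ikbkb, which encodes the kinase IKK beta, was at 44.2 ± 1.69 and 63.9 ± 2.92 CPM. Among 9 genes for processing and degradation of precursors and IkB, 1 rose and 1 fell. The one that rose was Map3k8, a kinase held by p105, from 1.36 ± 0.105 to 5.23 ± 1.09 CPM, and the one that fell was Skp1, of the ubiquitin ligase core (log2 fold change -0.64). Of 9 termination genes 5 rose and 1 fell. Tnfaip3 (A20), which edits ubiquitin chains, rose from 15.1 ± 2.31 to 224 ± 19.4 CPM and its partner Tnip1 from 56.8 ± 1.38 to 433 ± 39.9 CPM, while Pdlim2, a ligase for nuclear RelA named outside the rule as the list's only fall, fell by 1.31 on the log2 scale. Otulin, Otud7b and Commd1 were not called (adjusted p = 0.753, 0.451 and 0.163 by edgeR). Of 11 nuclear partners, such as acetyltransferases and deacetylases, 0 rose and 1, Hdac3, fell (log2 fold change -0.63). These counts stand beside 16.0% of tested genes called higher and 16.4% called lower.

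**Figure D4:**
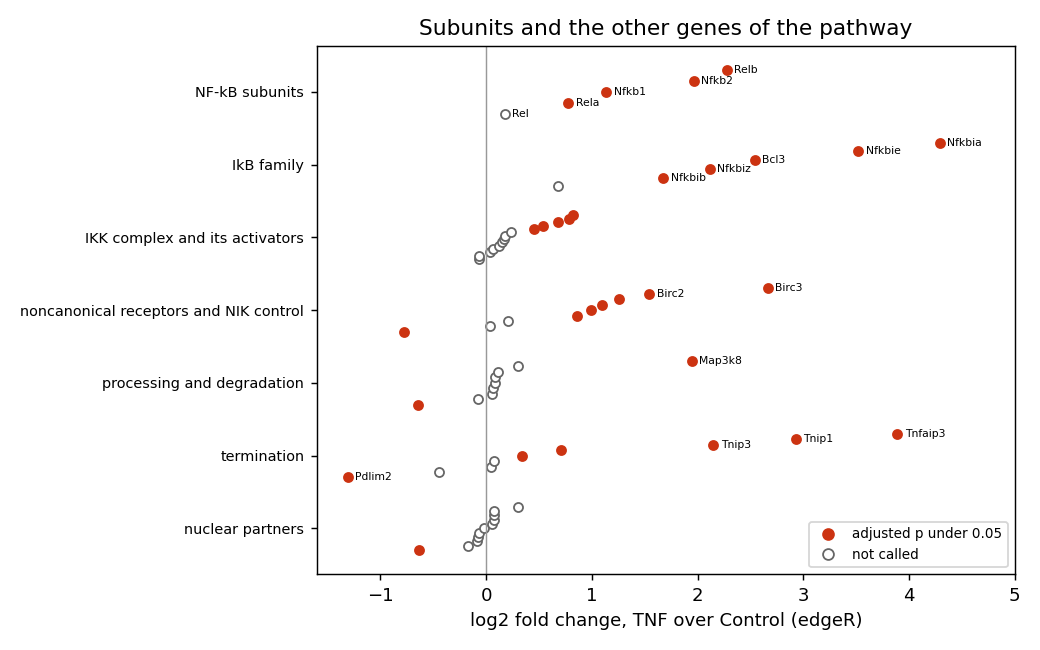
Log2 fold change, TNF over Control, of each subunit and of the tested genes in the 6 pathway lists, one row per list. Filled points passed an adjusted p of 0.05. Subunits spread from 0.18 (Rel) to 2.28 (Relb), and genes of the IkB family, termination and noncanonical lists (Birc3 at 2.66) reach beyond them.

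The likeness of patterns was measured as the root mean square difference of log2 CPM over the 6 libraries, each gene centred on its own mean. Among members, Nfkb2 was closest to Relb (0.18) and Nfkb1 to Rela (0.22), while Rel was 1.08 from Relb and 0.32 from Rela. Over the 10543 other named genes with a mean of at least 5 CPM, the genes most like Nfkb2 were Ikbke (0.05), which encodes a kinase related to the IKKs, Col18a1 (0.07) and Trim12c (0.08), against a median of 0.99 over all of them. For Relb they were Plpp3 (0.04), the death receptor gene Fas (0.08) and Exoc3l4 (0.09), against a median of 1.15. Those for Nfkb1 were Rai14 (0.03), Vegfa (0.05) and Rfx5 (0.05), for Rela they were Glipr2 (0.04), Abca3 (0.04) and Tmem176a (0.05), and for Rel Nol10 (0.04), Ctso (0.04) and Zfp697 (0.04). With 6 libraries in 2 groups, a gene of similar fold change is close by construction.

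The order of the fold changes, Relb, Nfkb2, Nfkb1, Rela and Rel, was the same in all 20 settings that gave fold changes of their own, the reported one included. The stricter threshold and the filter at 1 TPM change only which genes are tested or called. Across the 21 alternatives the log2 fold change ranged from 2.05 to 2.36 for Relb, 1.87 to 2.02 for Nfkb2, 0.99 to 1.19 for Nfkb1, 0.69 to 0.90 for Rela and 0.08 to 0.32 for Rel.

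**Figure D5:**
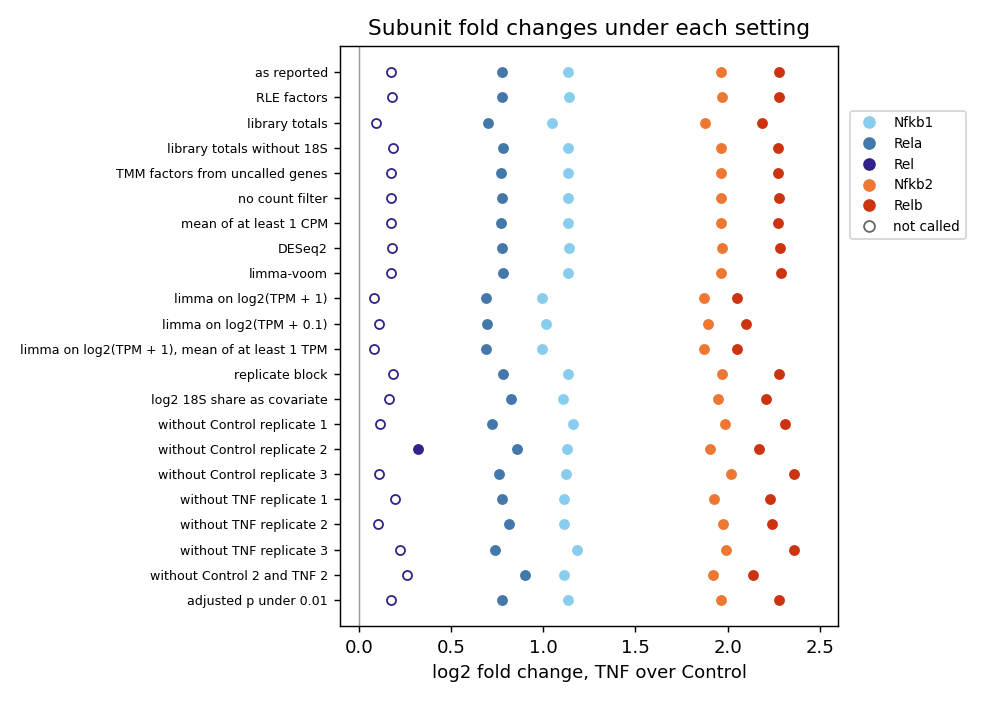
Log2 fold change of each subunit, TNF over Control, under the reported setting and 21 alternatives (one row each). Filled points were called. The 4 subunits that rose stay called in every row, and Rel (dark blue) is filled only without Control library 2.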

How the data were processed

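Total RNA of 6 samples was sequenced with a stranded SMART-Seq kit, per the labels' protocols. The authors deposited expected counts per gene as whole numbers and TPM with gene symbols for each library. The submitters' processing notes name Trim Galore, STAR, StringTie, Salmon and build GRCm39, without versions or settings. Each count file is titled normalized while its column is named raw. Totals differ between libraries, and the values were used as counts. Count lines carry no gene name and were paired with TPM lines by position: all 260 zeros coincided, and log2(count/TPM) of a gene varied little between libraries (median SD 0.0275, but 0.413 with lines moved by 1).

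R 4.3.3 with edgeR 4.0.16 was used to fit the counts of all genes by the quasi-likelihood method (glmQLFit, glmQLFTest, two-sided), with TMM factors, group as the only term, the filterByExpr filter and Benjamini-Hochberg adjustment. SEs are the log2 fold change over the square root of F, and 95% intervals use the test's degrees of freedom. Each SD is of 3 libraries. The procedure was tested on simulated counts. Likeness used log2 CPM with a prior count of 2. The subunits, the pathway and marker lists and the motifs were chosen with earlier results of these data known. Named were all subunits, up to 2 called genes per list, by adjusted p, genes not called where 5 or fewer, and the 3 genes most like each subunit. Alternatives were other scalings, filters, thresholds and tools (DESeq2 1.42.0, limma 3.58.1 on counts or log2 TPM), a replicate block, an 18S covariate, and leaving out libraries.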

Additional observations from a re-analysis of the deposited data

How the results depend on the processing

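Nfkb1, Rela, Nfkb2 and Relb were called higher in all 21 alternative settings, and 20 of these called 4 subunits. The exception was leaving out Control library 2, which added Rel (log2 fold change 0.32, adjusted p = 0.0395 by edgeR; 0.0533 without Control 2 and TNF 2 together). Over all genes the counts moved by more than 1.5 times in some settings. Genes called higher were 1612 with library totals, 1479 and 1475 with limma on log2 TPM (pseudocounts 1 and 0.1), and 1317 with limma on genes of at least 1 TPM, against 2489. Library totals after leaving out 18S gave 2224, with a median shift of 0.001 in place of -0.08. For the TPM settings the cause was not tested. A threshold of 0.01 left 1587 higher and 1534 lower. Library totals made 38.5% of calls higher, and the limma settings on TPM 40.3% to 40.8%, against 49.4% with TMM factors.

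The 3 ratios kept their direction in every setting tried. Libraries of the same number did not deviate together from their group means. Correlations of same-numbered deviations were -0.30 to -0.01, and 0 of 3 TNF libraries correlated best with the Control library of their number. With 3 libraries per group, these values do not show whether samples shared a culture or animal. With the replicate block 1987 genes were called higher and 1993 lower, and the log2 fold change of Rel was 0.19. Leaving out each library for the summed TPM, the noncanonical share and the inhibitor ratio, and rescaling TPM without 18S, were chosen after seeing the data and reversed no direction. Rel had the fewest counts of the 5 (595 to 1104 per library), and its SE (0.13) was close to that of Relb (0.13).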

Other observations

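Nfkb1 and Nfkb2 encode subunits without a transactivation domain, and Rela, Relb and Rel those with one. The summed TPM of the first pair over that of the other genes was 0.931, 0.745 and 0.877 in the Control group and 1.18, 1.17 and 1.13 in the TNF group, in the order of the libraries. It was therefore below 1 in each Control library and above 1 in each TNF library. Canonical and noncanonical members fall on both sides of this division, so it is a different cut through the same 5 genes.

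Counts per unit of TPM depend on the length of the transcripts to which reads were assigned. Centred on each library's median, log2(count/TPM) of Relb was -0.37 ± 0.03 in Control and -0.26 ± 0.01 in TNF (SD, n = 3 each), a difference of 0.11. Of 15473 genes with counts in every library, the 5th and 95th percentiles of this difference were -0.16 and 0.12. The same difference was 0.05 for Nfkb1, 0.01 for Rela, 0.01 for Rel and 0.00 for Nfkb2. Which transcripts of Relb the reads came from was not determined, since the files give values per gene.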
